A study of Arabidopsis thaliana with 15 samples.

Results

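Some genes were abundant in one *msh1* memory plant and almost silent in another plant of the same group. A nuclear gene was counted here when, within the 3 Gen1 memory plants or within the 3 Gen5 memory plants, the highest plant reached at least 1 CPM (counts of the gene per 1000000 counts on all gene rows of that plant) and (highest + 0.05)/(lowest + 0.05) was at least 16. That quotient is called the rule ratio below. It was met by 41 of 32547 nuclear genes, 33 within Gen1 memory and 11 within Gen5 memory, with 3 genes in both. The genes were thus chosen by their CPM in the 6 memory plants, so their spread there is described and not tested.

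All plants were *Arabidopsis thaliana* Columbia-0, and RNA-seq was run on plants frozen at bolting, described as whole rosettes in the sample labels and as whole plants in the study's methods. Memory plants carried no MSH1-RNAi transgene any more but kept an altered phenotype of slow growth, late flowering and pale leaves after a transgenic parent had segregated. The Gen1 memory plants were full sibs of one family that descended from a single T1 plant, and the Gen5 memory plants came from later selfing, so both memory groups trace to one lineage. The 9 reference plants were 3 Gen1 nonmemory plants (transgene-null sibs of normal phenotype), 3 Gen1 wild-type (WT) plants and 3 Gen5 WT plants, the WT plants taken from negative RNAi transformation events and grown in parallel. Plant numbers 1 to 3 are the replicate numbers in the sample labels.

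As background, *Arabidopsis* rosettes hold several inducible programmes that are low in an unchallenged leaf. Salicylate signalling, set off by biotrophic pathogens, raises PR1 and other secreted defence proteins, while jasmonate signalling, set off by wounding, insects and necrotrophs, raises defensins and protease inhibitors, and the pathways often oppose each other. Iron shortage raises the subgroup Ib basic helix-loop-helix factors bHLH38, bHLH39, bHLH100 and bHLH101, which act with FIT to turn on iron uptake.

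The libraries held between 77169986 and 79202824 counts on gene rows, so 1 CPM stood for 77 to 79 counts and a count of 0 still allowed 3 counts, or 0.0379 to 0.0389 CPM. These limits cover counting error only. MSH1 itself lay between 7.14 and 11.1 CPM in the 15 plants, with no plant near 0. Rosette leaf markers summed to 36400 to 40500 CPM in the memory plants and 24900 to 29800 CPM in the reference plants. Markers of other organs were low throughout. Of 28 anther and pollen genes 22 stayed under 0.1 CPM in all 15 plants, as did 14 of 15 seed maturation genes and 14 of 18 root genes, and none of these markers was among the 41 genes. The summed anther and pollen level was 9.41 to 13.9 CPM in memory plants and 6.96 to 9.21 CPM in reference plants. Most of that sum came from TKPR1 and LAP6. TKPR1 had 4.12 to 8.19 CPM in memory and 1.87 to 3.19 CPM in reference plants, whereas LAP6 had 4.40 to 4.97 and 4.45 to 5.29 CPM. The part of the summed level in the results was not tested. In such bulk tissue fewer cells of a type and less RNA per cell cannot be told apart.

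In Gen1 memory the rule took 0.188% of the 17585 genes with a plant at 1 CPM or more, and in Gen5 memory 0.063% of 17450. The same rule took 6 of 17549 genes in Gen1 nonmemory (0.0342%), 1 of 17713 in Gen1 WT (0.00565%) and 5 of 17515 in Gen5 WT (0.0285%). With 3 plants in each group these counts are a description. The memory counts rested on single plants. The 33 genes of Gen1 memory became 2 without plant 1 and 5 without plant 3, and the 11 of Gen5 memory became 2 without plant 2 and 4 without plant 1. The 41 genes in all became 11 without Gen1 memory plant 1 and 16 without Gen1 memory plant 3. Over all genes the counts of Gen1 memory plants 1 and 3 differed by a chi-square per degree of freedom of 121. Plant 2 differed from plants 1 and 3 by 65.8 and 66.8, and pairs within the reference groups by 12.7 to 54.5. The part of this wider difference in the 33 genes was not tested.

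The 41 genes fell into few patterns once the plants were lined up. Gen1 memory plant 1 was the highest of its group for 35 of the 41 genes, and plant 3 the lowest for 31. In Gen5 memory plant 1 was the lowest, or tied for lowest at 0 counts, for 37 genes and plant 2 the highest for 27. The genes were then sorted by their highest plant and by whether the median of the 9 reference plants exceeded the median of the 6 memory plants. This sorting was done after the values were seen. It gave a PR1 set of 21 genes, a bHLH100 set of 9, a PDF1.2c set of 8, and 3 genes that were present or at 0 in plants of the same group.

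**Figure D1:**
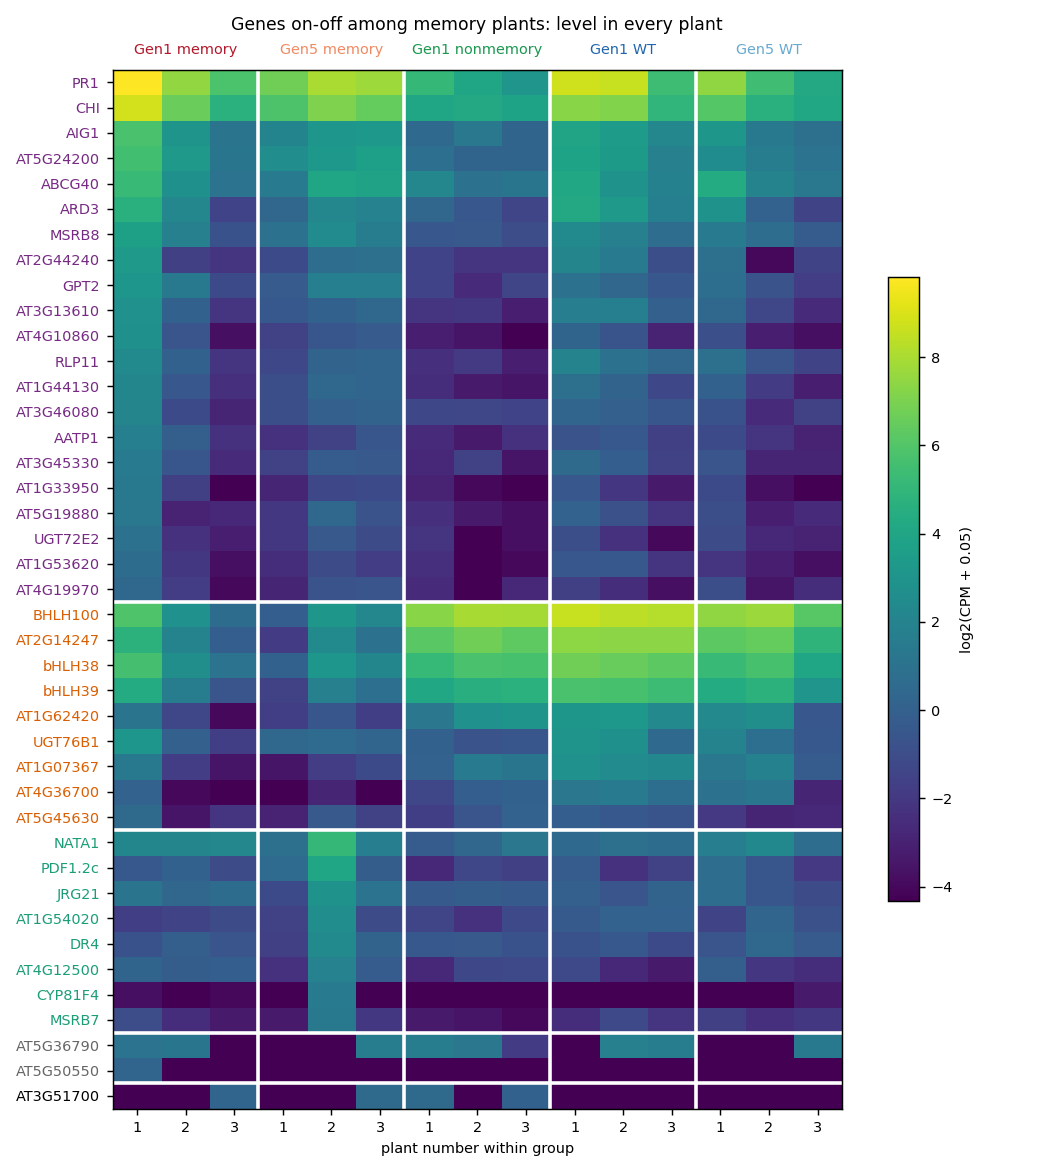
Level of each of the 41 genes (rows, names coloured by set) in each of the 15 plants (columns, 3 per group), as log2(CPM + 0.05) on the colour scale. Gen1 memory plant 1 is brightest across the PR1 set in purple, the bHLH100 set in orange is brighter in most reference plants than in memory plants, and Gen5 memory plant 2 stands out in the PDF1.2c set in green.

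The promoter sequences of 4 genes are shown, the 3 of their set that held the motif in capitals below and bHLH39, which did not. Each is the 250 bases before the annotated gene start on the TAIR10.1 assembly, read from the RefSeq genome and annotation in the direction of transcription. All 4 belong to the bHLH100 set, and the G-box (CACGTG, its own reverse complement, a site of bHLH and bZIP factors) is in capitals where present. They lie on the minus strand at chr2:17199455-17199704 for bHLH100, chr3:21085246-21085495 for bHLH38, chr3:21087711-21087960 for bHLH39 and chr4:17300368-17300617 for AT4G36700.
bHLH100: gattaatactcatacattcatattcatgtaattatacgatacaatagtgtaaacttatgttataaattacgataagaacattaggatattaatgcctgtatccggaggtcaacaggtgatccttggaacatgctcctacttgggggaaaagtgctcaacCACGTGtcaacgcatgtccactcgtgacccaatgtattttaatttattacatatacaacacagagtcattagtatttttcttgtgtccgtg
bHLH38: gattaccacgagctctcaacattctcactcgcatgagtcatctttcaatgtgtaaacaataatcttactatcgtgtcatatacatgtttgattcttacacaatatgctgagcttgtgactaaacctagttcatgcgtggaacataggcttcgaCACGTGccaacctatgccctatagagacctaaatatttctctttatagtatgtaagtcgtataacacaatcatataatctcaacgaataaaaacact
bHLH39: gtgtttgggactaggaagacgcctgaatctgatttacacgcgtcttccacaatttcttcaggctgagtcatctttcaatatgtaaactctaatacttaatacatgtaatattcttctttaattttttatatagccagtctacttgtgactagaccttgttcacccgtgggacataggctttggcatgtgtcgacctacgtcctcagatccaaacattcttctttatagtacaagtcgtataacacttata
AT4G36700: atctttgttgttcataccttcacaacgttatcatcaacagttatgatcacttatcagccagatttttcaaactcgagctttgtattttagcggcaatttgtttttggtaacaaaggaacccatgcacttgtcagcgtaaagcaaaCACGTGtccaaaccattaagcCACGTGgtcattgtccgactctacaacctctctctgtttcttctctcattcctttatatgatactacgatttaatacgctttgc
The G-box was present once before bHLH100 and bHLH38, in 2 copies before AT4G36700, and not in the window of bHLH39. The other protein-coding genes of the set, AT1G62420, AT2G14247, UGT76B1 and AT5G45630, held none and are not shown.

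Over all promoters of this length (27437 protein-coding genes), the G-box was found in 6.49% and the W-box core (TTGAC on either strand, bound by WRKY factors) in 44.9%. Among protein-coding genes of the bHLH100 set 3 of 8 held the G-box, and no gene of the other sets did. The W-box core was in 14 of 21 promoters of the PR1 set, in 5 of 8 of the PDF1.2c set and in 2 of 8 of the bHLH100 set. The as-1 core (TGACG, whose first 4 letters can be the last 4 of a W-box core) was in 5 of 21, 2 of 8 and 0 of 8 in the same order, against 18.6% of all promoters. The GCC-box (GCCGCC) was in none of the 40 windows and in 1.87% of all. These are matches of letters and were not taken as binding sites.

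The PR1 set was led by genes of pathogen response. PR1 (AT2G14610, chr2:6241640-6242541, minus strand), a secreted protein used as the marker of salicylate signalling, stood at 894 CPM in Gen1 memory plant 1, 182 in plant 2 and 54.9 in plant 3. In Gen5 memory it was at 109, 262 and 216 CPM in plants 1 to 3. The nonmemory plants had 34.0, 16.4 and 8.23 CPM, the Gen1 WT plants 441, 394 and 42.3, and the Gen5 WT plants 176, 44.4 and 18. Gen1 memory plant 1 was above every other plant, but Gen1 WT plants 1 and 2 exceeded the other memory plants, and all 6 memory plants exceeded the 3 nonmemory plants. The rule ratio of PR1 in Gen1 memory, 16.3, was the smallest that passed.

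CHI (AT2G43570), a putative chitinase and so an enzyme that cuts fungal walls, followed the same course. It had 457, 96.6 and 26.1 CPM in Gen1 memory and 57.8, 137 and 89.3 CPM in Gen5 memory. Its nonmemory levels were 14.4 to 18.6 CPM, its Gen1 WT levels 154, 139 and 31.7, and its Gen5 WT levels 66.7, 25 and 17.9. Every memory plant was above every nonmemory plant, whereas the WT plants overlapped both.

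AIG1 (AT1G33960), a GTP-binding protein induced during recognition of an avirulent bacterium, reached 52.9 CPM in Gen1 memory plant 1 and 7.98 and 2.13 in plants 2 and 3. Its Gen5 memory levels were 4.15, 8.67 and 9.03 CPM. The nonmemory plants stayed at 1.13 to 2.44 CPM, while Gen1 WT had 14.9, 11.0 and 4.55 and Gen5 WT 8.75, 2.55 and 1.79. Only Gen1 memory plant 1 lay outside the range of the 9 reference plants. Its neighbour AT1G33950, of the same family, had 2.58, 0.269 and 0 CPM in Gen1 memory and at most 0.674 CPM in the reference plants.

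The rest of the set spanned transport, metabolism and signalling. ARD3, an acireductone dioxygenase of the methionine salvage cycle, had one of the larger ratios, 71.3, with 25.2, 4.56 and 0.304 CPM in Gen1 memory. Its Gen1 WT levels of 18, 9.64 and 3.39 CPM and its Gen5 WT levels of 7.40, 1.04 and 0.319 CPM also spread widely, and the gene met the rule in Gen5 WT too. ABCG40, an ABC transporter known to import abscisic acid, had 38.0, 6.87 and 2.00 CPM in Gen1 memory against 21.0, 3.95 and 2.49 in Gen5 WT. AT5G24200, annotated as a hydrolase of the alpha/beta fold, had 45.7, 10.1 and 2.17 CPM in Gen1 memory, and MSRB8, a methionine sulfoxide reductase that repairs oxidised protein, had 12.9, 3.55 and 0.545.

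AT2G44240 had 10.1 CPM in Gen1 memory plant 1 but 0.269 and 0.177 CPM in plants 2 and 3, so that the middle plant sat with the low one. AT4G10860 had the largest ratio of the 33 Gen1 genes, 91.2, at 6.82, 0.602 and 0.0253 CPM, the last from 2 counts. GPT2, a plastid glucose 6-phosphate translocator, was above all 9 reference plants in 4 memory plants, at 8.57 and 2.55 CPM in Gen1 memory plants 1 and 2 and 3.35 and 3.24 CPM in Gen5 memory plants 2 and 3. For 15 of the 21 genes Gen1 memory plant 1 was the only memory plant above every reference plant. AT3G13610, the feruloyl-CoA hydroxylase of scopoletin synthesis, was one of these, at 6.95, 1.01 and 0.165 CPM in Gen1 memory. The receptor-like protein RLP11 was another, at 5.26, 0.999 and 0.165 CPM.

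Plant numbers recurred in groups that had no part in choosing the genes. Within the PR1 set plant 1 was highest for 21 of 21 genes in Gen1 memory, as the rule and the sorting required. The rule did not use the reference plants, but their median entered the sorting. Plant 1 was highest for 18 of 21 genes in Gen1 WT, for 21 of 21 in Gen5 WT and for 13 of 21 in Gen1 nonmemory. In Gen5 memory plant 1 was lowest for 21 of 21. Over all 41 genes, before any sorting, plant 1 was highest for 27 in Gen1 WT, 27 in Gen5 WT and 17 in Gen1 nonmemory. The share of all expressed genes with plant 1 highest was not computed, and genes that move together are not separate observations. The plants of different groups share a number and no known source, so the match is given as a count. Whether the number stands for a shared factor was not tested. Of the 33 genes that met the rule in Gen1 memory, 4 met it also in Gen5 WT, 3 in the Gen5 memory plants, 1 in nonmemory and 1 in Gen1 WT. Their median rule ratio was 4.76 in Gen5 WT, 3.26 in Gen1 WT, 3.20 in Gen5 memory and 2.30 in Gen1 nonmemory, where the median of all expressed genes was 1.11, 1.13, 1.24 and 1.13.

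**Figure D2:**
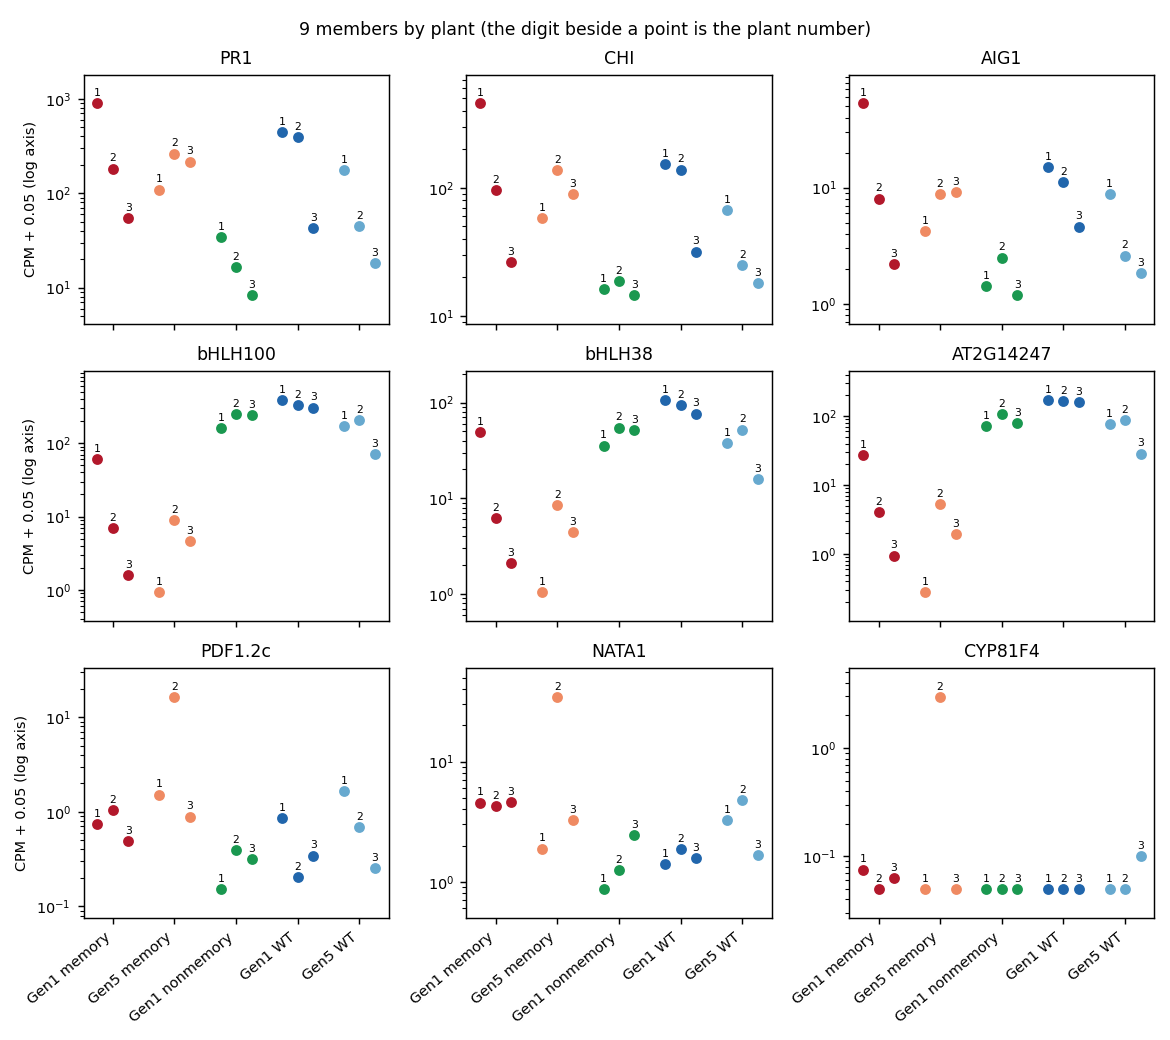
CPM + 0.05 on a log axis for 9 genes, 3 from each set, in the 15 plants, with the plant number beside each point. PR1, CHI and AIG1 are highest in plant 1 of Gen1 memory and of both WT groups, bHLH100, bHLH38 and AT2G14247 lie below every reference plant in at least 5 memory plants, and PDF1.2c, NATA1 and CYP81F4 are high in Gen5 memory plant 2.

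The salicylate list of 15 genes, which holds PR1 and AIG1, moved with the set. All 15 were measured at 1 CPM or more in a memory plant, and 13 were highest in Gen1 memory plant 1 within their group. The share of all expressed genes that were highest in that plant was not computed. The median rule ratio of the list was 5.70 in Gen1 memory and 1.67 in Gen5 memory. PR2, a glucanase, had 2030, 644 and 176 CPM in Gen1 memory with a ratio of 11.5, and PR5, a thaumatin-like protein, had 1570, 362 and 134 CPM with a ratio of 11.7. ALD1, which starts the synthesis of pipecolic acid, came closest to the rule of the genes left outside it on this list, at 23.1, 6.43 and 1.86 CPM with a ratio of 12.1. WRKY70, a transcription factor of the pathway, did not follow, at 273, 222 and 294 CPM. The summed level of the list was 812 to 5260 CPM in Gen1 memory, 1050 to 2110 in Gen5 memory, 924 to 1320 in nonmemory, 1430 to 3600 in Gen1 WT and 879 to 2080 in Gen5 WT.

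The bHLH100 set showed the reverse relation to the reference plants. bHLH100 (AT2G41240, chr2:17198037-17199454, minus strand) had 60.7, 6.98 and 1.53 CPM in Gen1 memory and 0.880, 8.83 and 4.56 CPM in Gen5 memory. The nonmemory plants had 159, 252 and 241 CPM, Gen1 WT 387, 334 and 305, and Gen5 WT 173, 208 and 71.1. All 6 memory plants lay below all 9 reference plants, and Gen1 memory plant 1 came nearest to them.

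The adjacent genes bHLH38 (AT3G56970) and bHLH39 (AT3G56980), separated by 1144 bases on chromosome 3, ran in parallel. bHLH38 had 49.2, 6.21 and 2.07 CPM in Gen1 memory, 0.995, 8.38 and 4.41 in Gen5 memory, and 15.7 to 106 in the reference plants. bHLH39 had 20.6, 2.98 and 0.608 CPM in Gen1 memory, 0.293, 3.51 and 1.75 in Gen5 memory, and 8.17 to 53.0 in the reference plants. For both genes 5 memory plants were below every reference plant, and Gen1 memory plant 1 fell inside their range. The best match of the bHLH38 locus elsewhere covered 76.0% of its length at 82.09% identity and lay in bHLH39. bHLH38 also overlaps AT3G56960 on the other strand, and the library kit did not mark strand.

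AT2G14247, a gene of unknown function, was the only one of the set to meet the rule in both memory groups, at 26.9, 3.96 and 0.900 CPM in Gen1 memory and 0.230, 5.31 and 1.90 CPM in Gen5 memory. Its reference plants had 28.6 to 171 CPM, above all 6 memory plants. It overlaps the antisense locus AT2G06085, so part of its counts may stem from the other strand. AT1G62420, AT1G07367 (a long noncoding RNA) and AT4G36700 (a cupin) repeated the pattern at lower levels, with 5 memory plants each below every reference plant. AT1G62420 had 2.15, 0.359 and 0.0127 CPM in Gen1 memory against 0.663 to 9.19 in the reference plants. AT4G36700 had 1.02, 0.0128 and 0 CPM there, the last 2 values being 1 count and 0 counts.

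UGT76B1 and AT5G45630 sorted with this set by their medians but overlapped the reference plants. UGT76B1, a glucosyltransferase that acts on isoleucic and salicylic acid, had 8.59, 0.948 and 0.253 CPM in Gen1 memory, 7.85, 6.83 and 1.39 in Gen1 WT, and 0.552 to 0.977 in nonmemory. AT5G45630 had 1.44, 0.0384 and 0.165 CPM in Gen1 memory and 0.0884 to 1.02 in the reference plants.

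The list of iron, copper, sulphate and phosphate deficiency genes held 3 of the 41 genes among its 13. bHLH101, the fourth factor of the subgroup, just missed the rule with 10.4, 2.18 and 0.760 CPM in Gen1 memory and a ratio of 12.9, against 12.0 to 78 CPM in the reference plants. The iron-responsive peptide genes IMA1 and IMA2 had ratios of 9.74 and 12.6 in Gen1 memory with plant 1 highest. FSD1, the iron superoxide dismutase that falls in copper-replete plants, ran opposite to bHLH100, at 205, 654 and 772 CPM in Gen1 memory and 164 to 368 CPM in the reference plants. SDI1, a sulphur deficiency gene, did not differ among memory plants in this way: it lay at 3.26 to 6.89 CPM in all 6 and at 105 to 218 CPM in the reference plants.

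The PDF1.2c set was high in 1 plant, Gen5 memory plant 2. PDF1.2c (AT5G44430), a plant defensin induced by jasmonate with ethylene, had 16.4 CPM there, 1.47 and 0.841 CPM in Gen5 memory plants 1 and 3, 0.444 to 0.999 CPM in Gen1 memory and 0.103 to 1.60 CPM in the reference plants. NATA1 (AT2G39030), an acetyltransferase that makes acetylornithine after jasmonate, had 34.5 CPM in the same plant, 1.84 and 3.19 CPM in its 2 group mates, 4.20 to 4.57 in Gen1 memory and 0.823 to 4.71 in the reference plants. In both genes the other 14 plants overlapped and only Gen5 memory plant 2 stood clear.

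CYP81F4, a cytochrome P450 that modifies indole glucosinolates, had 2.92 CPM in Gen5 memory plant 2, was at 0 counts in 11 plants and at most 0.0510 CPM in the remaining 3. Its rule ratio was 59.3. JRG21, a jasmonate-regulated oxygenase, had 0.408, 7.48 and 2.04 CPM in Gen5 memory, and the GDSL lipase AT1G54020 had 0.293, 6.10 and 0.433. The protease inhibitor DR4 had 0.268, 5.28 and 1.07 CPM, and the lipid transfer protein AT4G12500 had 0.153, 3.77 and 0.829. MSRB7 had 0.0510, 2.61 and 0.191 CPM.

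MSRB7 and MSRB8 are neighbours on chromosome 4, 1437 bases apart, yet they peaked in different plants. MSRB7 was highest in Gen5 memory plant 2 at 2.61 CPM, where MSRB8 had 5.58. MSRB8 was highest in Gen1 memory plant 1 at 12.9 CPM, where MSRB7 had 0.457. Their best match to each other was 92.62% identical over 42.4% of MSRB7, so some reads may not be assigned to one of them.

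The jasmonate and ethylene list of 15 genes shared the high plant. Of its 13 genes with a memory plant at 1 CPM or more, all 13 were highest in Gen5 memory plant 2 within their group. Their median rule ratio was 4.86 there and 1.63 in Gen1 memory. Some varied little in Gen5 memory, with ratios of 1.62 for ORA59, 1.78 for PR4 and 1.82 for CHI-B. The share of all expressed genes that were highest in this plant was not computed. VSP1, a vegetative storage phosphatase, had 5.45, 60.4 and 7.22 CPM in Gen5 memory (ratio 11.0), and TPS04, a geranyllinalool synthase, had 0.561, 6.15 and 1.39 (ratio 10.1). PDF1.2 had 8.21, 39.8 and 5.89 CPM. LOX2, an abundant lipoxygenase of jasmonate synthesis, hardly varied, at 2560, 2930 and 2380 CPM. Other genes moved with this plant as well. All 5 senescence genes at 1 CPM or more were highest in it within Gen5 memory, with a median rule ratio of 2.27, and over all genes its counts differed from plants 1 and 3 by a chi-square per degree of freedom of 89.4 and 108, where plants 1 and 3 differed by 31.7. The part of this in the PDF1.2c set was not tested.

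The remaining 3 genes were either present or at exactly 0 counts. AT5G36790 (chr5:14480482-14483927), annotated as a phosphoglycolate phosphatase of photorespiration, had 163, 173 and 0 counts in Gen1 memory and 0, 0 and 240 in Gen5 memory. The nonmemory plants had 233, 182 and 18 counts, Gen1 WT 0, 274 and 240, and Gen5 WT 0, 0 and 201. The zeros were spread over memory and WT alike, and the gene met the rule in 4 of 5 groups, all but nonmemory, where the ratio was 10.9.

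AT5G50550, a SEC12-like protein of vesicle traffic, had 94 counts in Gen1 memory plant 1 and 0 in the other 14 plants. AT3G51700, a PIF1-type helicase, had 93 counts in Gen1 memory plant 3, 114 in Gen5 memory plant 3, 111 in nonmemory plant 1, 77 in nonmemory plant 3 and 0 in the other 11, all 6 WT plants among them. Zero and presence were thus found side by side in memory and nonmemory for AT3G51700, and in 1 memory plant only for AT5G50550.

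Sequence copies touched these genes directly. The AT5G36790 locus matched chr5:14421182-14424627, which holds PGLP1 (AT5G36700), at 100% identity over 100% of its length. The AT5G50550 locus matched chr5:20610075-20612445, which holds AT5G50650 and overlaps AT5G50660, in the same way. PGLP1 was at 0.205 to 0.788 CPM and AT5G50650 at 0 to 0.09 CPM in the 15 plants. Because only uniquely mapped reads were counted, the values of AT5G36790 and AT5G50550 are uncertain. AT3G51700 was 82.98% identical to its neighbour AT3G51690 over 51.6% of its length, and AT3G51690 was at 0 in 14 of the 15 plants. Without the 2 identical copies the rule was met by 39 genes, 2 of them in both memory groups.

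**Figure D3:**
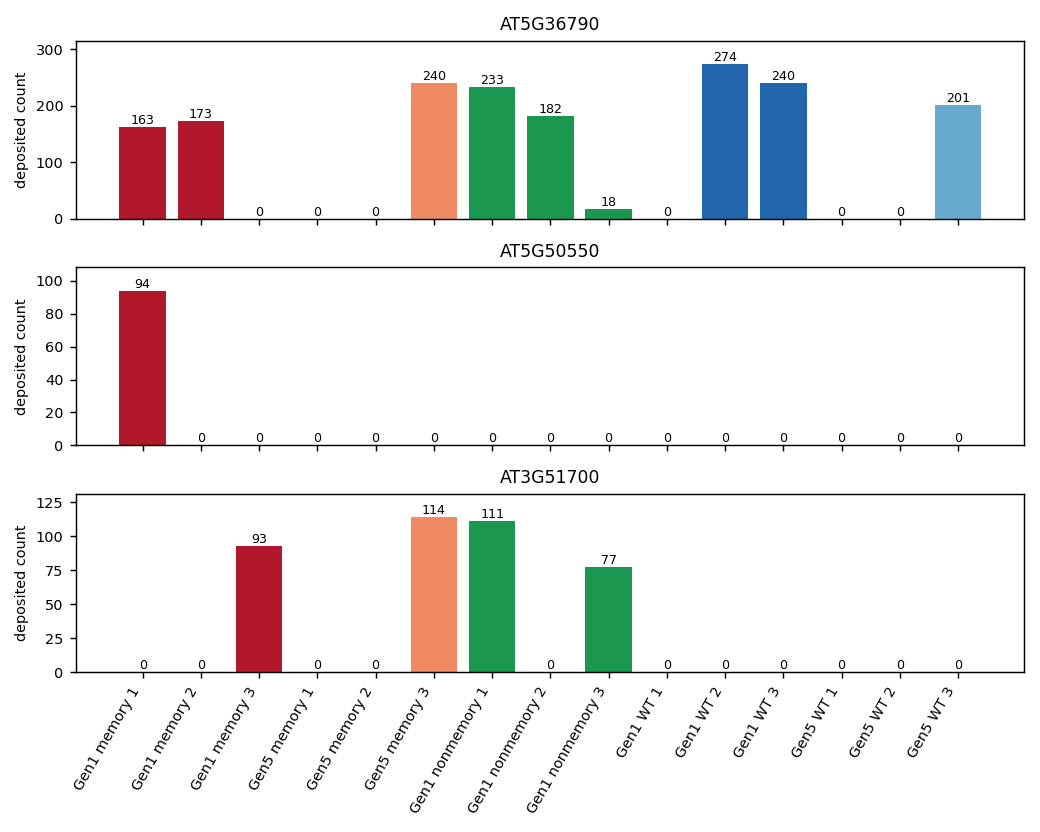
Deposited counts (bars from 0, value above each bar) of AT5G36790, AT5G50550 and AT3G51700 in the 15 plants. Each gene has 77 counts or more in at least 1 plant and 0 in others, and for AT5G36790 the zeros occur in both memory groups and both WT groups.

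The rule was met in both memory groups by 3 genes. They were AT2G14247, AT5G36790 and AT3G51700, which is 9.09% of the 33 Gen1 genes and 27.3% of the 11 Gen5 genes, where the rule took 0.063% of all expressed genes in Gen5 memory and 0.188% in Gen1 memory. Leaving these 3 aside, the other 30 Gen1 genes had a median ratio of 2.85 in Gen5 memory, and the other 8 Gen5 genes had a median ratio of 1.64 in Gen1 memory, where all expressed genes had medians of 1.24 and 1.2. Without Gen1 memory plant 3 no gene met the rule in both groups, and without Gen5 memory plant 3 it was 1 gene.

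**Figure D4:**
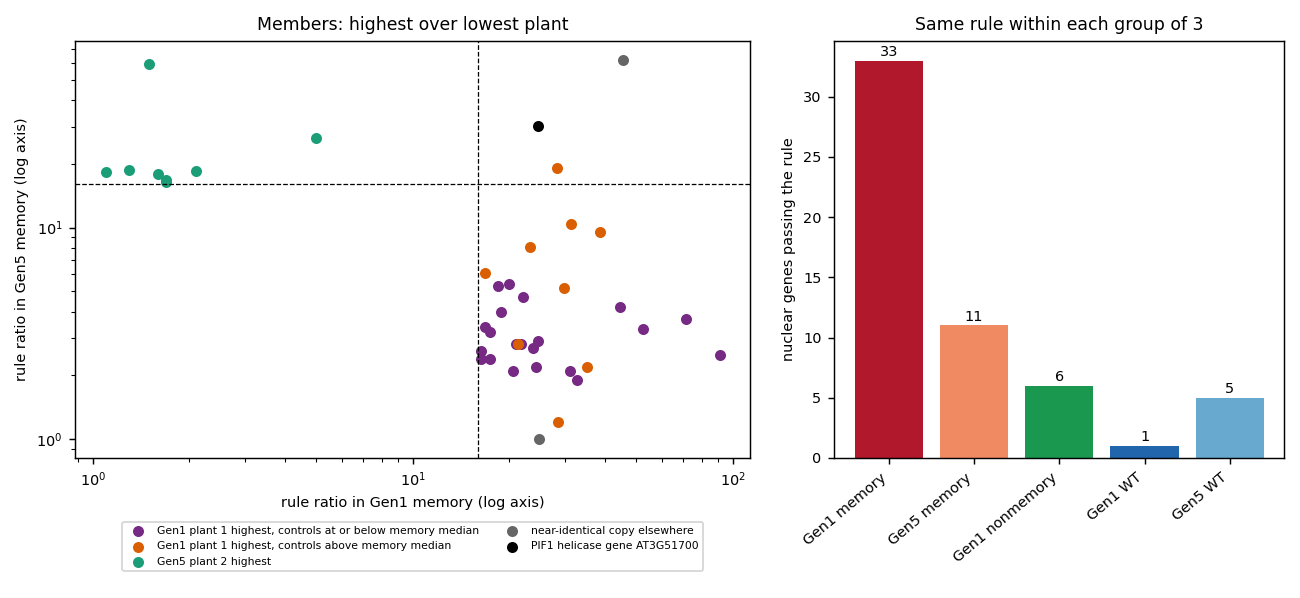
Left, rule ratio of each of the 41 genes in Gen1 memory (x) and Gen5 memory (y), both on log axes, with dashed lines at 16. Right, number of nuclear genes meeting the rule within each group of 3 plants, 33 and 11 in the memory groups and 6, 1 and 5 in the reference groups.

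The lowest plant still had counts for most of the genes. With 3 bulk plants per group, a graded and an all-or-none change cannot be told apart. Of the 33 Gen1 genes 5 had 0 counts in the lowest plant and 15 had 10 counts or fewer there, with a median of 12 counts against a median of 414 in the highest plant. Of the 11 Gen5 genes 3 had 0 counts in the lowest plant. The middle plant was nearer to the lowest than to the highest on the log2 scale for 24 of 33 Gen1 genes and 8 of 11 Gen5 genes. Its median position, with 0 for the lowest and 1 for the highest plant, was 0.43 in Gen1 memory and 0.19 in Gen5 memory.

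The genes nearest the threshold were alike on both sides. Just inside were PR1 at a ratio of 16.3, the lectin receptor kinase AT3G45330 at 16.4 and JRG21 at 16.4. Just outside, all in Gen1 memory, were AT5G57010 at 15.9 (5.98, 0.922 and 0.329 CPM), the ER chaperone BIP3 at 15.8 (71.5, 16.8 and 4.49 CPM) and AT3G22600 at 15.6 (33.4, 7.24 and 2.09 CPM). At a ratio of 8 the rule was met by 129 genes and at 32 by 9.

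By position the genes were dispersed. Chromosomes 1 to 5 held 11, 7, 8, 7 and 8 of them, or 26.8%, 17.1%, 19.5%, 17.1% and 19.5%, against 26.5%, 15%, 19.9%, 15.3% and 23.3% of the expressed nuclear genes. In 3 places 2 of the genes were direct neighbours: AT1G33950 with AIG1, bHLH38 with bHLH39, and MSRB7 with MSRB8, all of one family each. No run of 3 or more was found. Of the 41 genes 40 were protein-coding and 1 was a long noncoding RNA. Their median length was 1808 bases against 2475 for expressed genes. AT1G33950 was the longest at 7576 bases and matched 292 other places in the nuclear genome over at least 150 bases, and AT5G24200 matched 34, while no other gene matched more than 4. An annotated gene overlapped 6 of the 41, AT1G44130, AT2G14247, AT3G13610, bHLH38, CYP81F4 and AT5G50550.

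Comparisons that used no memory plant gave tests independent of the choice of genes, but not of each other, because both used the Gen1 WT plants. The first asked how Gen1 nonmemory differed from Gen1 WT, with edgeR's quasi-likelihood test on the counts, Benjamini-Hochberg adjustment over all 19826 genes tested, and calls at an adjusted p under 0.05 and a log2 difference beyond 0.5. Of the 41 genes 35 could be tested and 24 were lower in nonmemory, with 0 higher. Over all genes 7.7% were called either way, 4.89% lower and 2.81% higher. The median log2 difference was -1.70 for the 35 genes and near 0 for all genes. The lower genes were 16 of 18 tested in the PR1 set, 6 of 9 in the bHLH100 set and 2 of 7 in the PDF1.2c set. The sorting into sets used the levels of these reference plants, so the split between sets is no independent finding.

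AT3G13610 fell most in nonmemory, from 3.19, 3.33 and 0.971 CPM in Gen1 WT to 0.167, 0.193 and 0.0637 CPM, a log2 difference of -4.11 ± 0.58 (SE; edgeR adjusted p = 0.00504). RLP11 was next, from 3.90, 1.98 and 1.21 CPM to 0.141, 0.218 and 0.0637, at -4.02 ± 0.56 (edgeR adjusted p = 0.00477). PR1 differed by -3.89 ± 0.87 (edgeR adjusted p = 0.0217). The groups did not overlap in any of the 3, and Gen1 WT plant 3 was the lowest WT plant in each. The call for PR1 was lost without nonmemory plant 2 or 3 or without Gen1 WT plant 1 or 2, and the calls for AT3G13610 and RLP11 were kept in each omission. The count of 24 became 15 without nonmemory plant 2 (1 of them higher), 13 without nonmemory plant 3, 13 without Gen1 WT plant 1 and 10 without Gen1 WT plant 2. With all 15 plants in one fit, memory plants included, it was 4.

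The salicylate list gave 10 of 15 genes lower and 0 higher in nonmemory than in Gen1 WT, with a median log2 difference of -1.40. Of the deficiency list 9 of 12 tested genes were lower and 1 was higher, FSD1 at 0.54 ± 0.14 (edgeR adjusted p = 0.0316), with a median of -0.92. The jasmonate and ethylene list had 2 of 13 lower and 0 higher, with a median of -0.13.

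The second such comparison used Gen5 WT against Gen1 WT. It shares the Gen1 WT plants with the first, so the shared direction of the medians is not a separate result. Of 38 tested 6 were lower in Gen5 WT and 0 higher, where 10.7% of all 19855 genes were called either way, 6.05% lower and 4.69% higher. The median log2 difference was -1.28, against -0.01 for all genes. AT1G53620 differed by -2.52 ± 0.71 (edgeR adjusted p = 0.0368), AT5G45630 by -2.39 ± 0.37 (edgeR adjusted p = 0.00402) and bHLH39 by -1.35 ± 0.36 (edgeR adjusted p = 0.0306). bHLH38, bHLH100 and AT2G14247 were the other 3. AT5G45630 kept its call in each omission of a plant, while AT1G53620 and bHLH39 lost theirs without Gen1 WT plant 1 or 2, and also AT1G53620 without Gen5 WT plant 2 or 3 and bHLH39 without Gen5 WT plant 1. Without Gen1 WT plant 1, or without Gen1 WT plant 2, only 1 gene was called, and 9 were called without Gen1 WT plant 3.

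**Figure D5:**
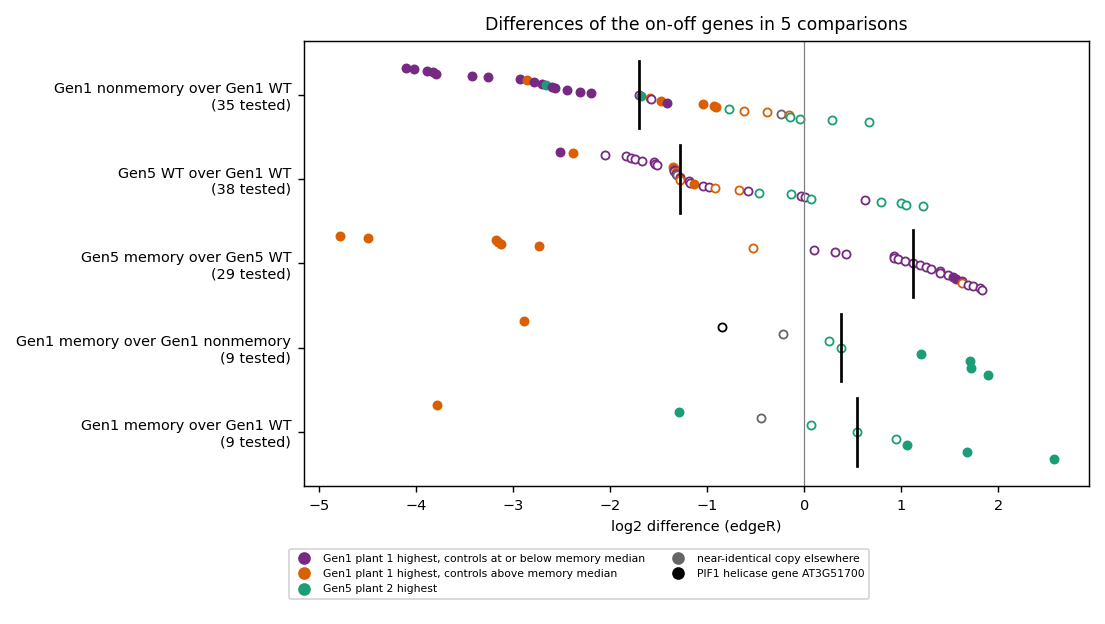
log2 differences (edgeR) of the genes in 5 comparisons, 1 point per gene, filled where called, black bars at the medians, colours by set. In nonmemory against Gen1 WT 24 of 35 are called lower, and in the 3 memory comparisons the genes that met the rule in both groups (AT2G14247, AT5G36790 and AT3G51700, where tested) were chosen on the plotted plants.

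Genes chosen in one memory group were then compared in the other generation. The 3 genes that met the rule in both groups were chosen on the compared plants too, so their differences are a description, and each count is also given without them. The 33 genes from Gen1 memory were compared between Gen5 memory and Gen5 WT, where 29 could be tested. Of these 6 were lower and 3 higher in Gen5 memory, against 13.7% and 13.3% of all 19799 genes and 27.0% either way. Without the genes chosen in both groups 28 were tested, 5 lower and 3 higher. The 6 lower genes were all of the bHLH100 set, but that sorting used the Gen5 plants, so the split of directions between sets is no independent finding. bHLH100 differed by -4.79 ± 0.76 (edgeR adjusted p = 0.00174) and AT1G62420 by -3.18 ± 0.79 (edgeR adjusted p = 0.0132). The others were bHLH38, bHLH39, AT1G07367 and, among the genes chosen in both groups, AT2G14247 with a difference of -4.5 ± 0.84. For bHLH100 all 3 Gen5 memory plants (0.880 to 8.83 CPM) were under all 3 Gen5 WT plants (71.1 to 208 CPM). The call for bHLH100 held in each omission, and that for AT1G62420 was lost without Gen5 memory plant 1 or 3.

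All 21 genes of the PR1 set had log2 differences above 0 in this comparison, with a median of 1.31. The sorting that made the set used the Gen5 plants, so this shared direction is no independent finding. Of the 21 genes 3 were called: AT3G46080, a zinc finger gene, at 1.62 ± 0.53 (edgeR adjusted p = 0.0419), CHI at 1.56 ± 0.51 (edgeR adjusted p = 0.0398) and AT5G24200 at 1.53 ± 0.39 (edgeR adjusted p = 0.0149). PR1 itself had 109 to 262 CPM in Gen5 memory and 18 to 176 CPM in Gen5 WT, and the groups overlapped through WT plant 1. Without Gen5 WT plant 1 the number of members called was 22, of which 16 were higher. It was 5 without Gen5 WT plant 2 and 4 without Gen5 memory plant 3, with 0 higher in both. CHI, AT3G46080 and AT5G24200 each lost their call in either of these last omissions, and CHI and AT3G46080 also without Gen5 memory plant 2 or Gen5 WT plant 3. The call for CHI was also lost in DESeq2, and with all 15 plants in one fit none of the 3 was called.

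Over the deficiency list 7 of 12 tested genes were lower and 2 higher in Gen5 memory than in Gen5 WT, with a median log2 difference of -2.08. bHLH101 was lower by a log2 difference of -3.58 ± 0.57 (edgeR adjusted p = 0.00186) and FSD1 higher by 1.44 ± 0.23 (edgeR adjusted p = 0.00195). Of the salicylate list 1 of 15 was higher, ALD1, and 0 lower.

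The 11 genes from Gen5 memory were compared in the Gen1 plants, where 9 could be tested. Against Gen1 nonmemory 4 were higher in Gen1 memory and 1 lower, where 23.4% of all 19759 genes were called, 11.1% higher and 12.2% lower. Against Gen1 WT 3 were higher and 2 lower, where 20% of all 19848 genes were called, 9.52% higher and 10.5% lower. Without the genes chosen in both groups 6 were tested against nonmemory, 4 higher and 0 lower, and 7 against Gen1 WT, 3 higher and 1 lower. Both comparisons use the same memory plants and are not independent of each other.

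NATA1 had 4.5, 4.20 and 4.57 CPM in Gen1 memory, 0.823, 1.21 and 2.41 in nonmemory and 1.35, 1.83 and 1.53 in Gen1 WT, with no overlap. Its log2 difference was 1.72 ± 0.36 over nonmemory (edgeR adjusted p = 0.00826) and 1.68 ± 0.16 over Gen1 WT (edgeR adjusted p = 0.000378), and both calls held in each omission. AT4G12500 had 1.13, 0.846 and 0.874 CPM in Gen1 memory and 0.0511 to 0.389 CPM in the 6 Gen1 reference plants, again with no overlap. It was higher by 1.89 ± 0.45 over nonmemory (edgeR adjusted p = 0.0138) and 2.57 ± 0.60 over Gen1 WT (edgeR adjusted p = 0.0159), the latter lost without Gen1 WT plant 2. So 2 genes that were highest in 1 Gen5 plant were also higher in all 3 Gen1 memory plants than in the Gen1 reference plants. They hardly varied among these memory plants. In Gen5 WT 1 plant reached these levels for each gene. NATA1 had 3.2, 4.71 and 1.61 CPM there, and AT4G12500 had 0.919, 0.189 and 0.128 CPM.

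PDF1.2c was higher over nonmemory by 1.71 ± 0.49 (edgeR adjusted p = 0.0287), a call lost without Gen1 memory plant 1 or 2 or nonmemory plant 1 or 3. JRG21 was higher over nonmemory by 1.2 ± 0.24 (edgeR adjusted p = 0.00686) and over Gen1 WT by 1.06 ± 0.29 (edgeR adjusted p = 0.0269), the latter lost without Gen1 memory plant 1 or Gen1 WT plant 1 or 2. AT1G54020 was lower than in Gen1 WT by -1.29 ± 0.30 (edgeR adjusted p = 0.0155), lost without Gen1 memory plant 2 or Gen1 WT plant 2 or 3. AT2G14247, chosen in both groups, differed by -2.89 ± 0.97 from nonmemory and by -3.79 ± 1.01 from Gen1 WT. The counts of 5 in both comparisons fell to 3 without Gen1 memory plant 2. The nonmemory count was also 3 without nonmemory plant 1 or 3, and the WT count was 1 without Gen1 WT plant 2 and 3 without Gen1 WT plant 3.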

How the data were processed

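RNA-seq was run on 3 plants in each of 5 groups (TruSeq v2 libraries, which do not mark strand). The authors aligned the reads with STAR 2.7.0a to TAIR10, kept uniquely mapped reads and deposited raw counts per gene and plant, made with QoRTs. Summary rows were left out of totals and tests. The row for reads in no feature alone was 0.637% to 0.802% of the sum of a plant's gene, no-feature and ambiguous counts. 1 gene and 1 promoter sequence are not reported here. CPM was computed from these counts.

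Each comparison was fitted on its own 6 plants by glmQLFTest of edgeR 4.0.16 under R 4.3.3, after filterByExpr and TMM, with Benjamini-Hochberg adjustment. Each SE was worked back from the test, as the absolute log2 difference divided by the square root of the F statistic. The edgeR fit was tested on simulated counts, with the same dispersion for all genes and changes placed in well-counted genes only. That test does not speak for genes with few counts or a wider spread. The p-values set the difference between groups against the spread between these plants, moderated over all tested genes. They do not extend to other memory lineages. Alternatives were RLE factors, DESeq2 1.42.0, no filter, stricter thresholds, all 15 plants, a replicate block, other rule settings and the omission of each plant. Copies were sought with BLAST+ 2.17.0 (word size 28, identity of 80% or more, 150 bases or more). Gene names, coordinates and promoters came from RefSeq's TAIR10.1, in which all 41 genes had a row. Of 180 list genes 2 were dropped.

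The genes and lists were chosen with earlier results of these data known. The genes named were those meeting the rule in both groups, the 10 with the largest ratios at 10 CPM or more in each memory group, up to 4 per list, the 3 on each side of the threshold, and the 3 largest rises and falls called in each comparison. Others were chosen after their values were seen.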

Additional observations from a re-analysis of the deposited data

How the results depend on the processing

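The number of genes meeting the rule was 41, with 3 in both memory groups. It became 129 and 10 at a ratio of 8, 9 and 1 at a ratio of 32, 22 and 1 with a highest plant of at least 5 CPM, and 9 and 0 with 0.5 CPM added. TMM-scaled sizes, totals over nuclear genes and a floor of 0.5 CPM gave 41 or 42 genes. Omitting 1 memory plant gave 11 to 40 genes, and 0 to 3 in both groups.

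The number called in Gen1 nonmemory against Gen1 WT was 24, and became 6 at an adjusted p under 0.01, 4 with all 15 plants and 10 to 28 with 1 plant omitted. For Gen5 WT against Gen1 WT it was 6, and became 1, 0 and 1 to 9 in the same order. DESeq2 called 8 of the genes there, and 12 had an unadjusted p under 0.05. For Gen5 memory against Gen5 WT it was 9, and became 4 at an adjusted p under 0.01 and 4 to 22 with 1 plant omitted. For Gen1 memory it was 5 against nonmemory and 5 against Gen1 WT. It became 2 and 1 at an adjusted p under 0.01, 1 and 1 with all 15 plants, and 3 to 6 and 1 to 5 with 1 plant omitted. Leaving out the 2 genes with an identical copy, or from the memory comparisons the 3 genes chosen in both groups, choices made after seeing the data, kept each count within 1.5 times. Of the 21 calls with the largest rises and falls 4 held under every alternative run and none changed direction. The other single-gene calls (among them JRG21 over nonmemory, FSD1, bHLH101, ALD1) were not followed through the alternatives here.

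The replicate numbers were not taken to pair the plants. In each comparison at least 1 same-numbered pair had a correlation of deviations of 0.1 or less, but other pairs were higher. For plants 1 to 3 the correlations were 0.41, -0.09 and 0.51 between Gen1 WT and Gen5 WT. Between Gen1 WT and Gen1 memory they were 0.4, -0.12 and 0.39. The lowest of all comparisons was -0.35, and at most 4 of 6 plants were closest to their own number. A factor shared by plants of the same number was not tested. With the replicate block the count for Gen5 WT against Gen1 WT was 22 (20 lower, 2 higher), the other counts stayed within 1.5 times, and AT3G46080 was no longer called in Gen5 memory against Gen5 WT. The cause of these shifts was not tested. Depth limits the lowest levels, where 1 or 2 counts set a ratio.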
